A study of Mus musculus with 48 samples.

Results

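Ileum and duodenum of the mouse were compared at week 2 after birth, late in suckling and before the pups left the dam. The comparison rests on 6 samples of the 48 in the series, 3 of each region, chosen by the region and age in their labels. The duodenum pieces came from just beyond the stomach outlet and the ileum pieces from just before the caecum, each 2 cm long. All were whole-thickness tissue of C57Bl/6J mice, both sexes were used, and no group carried a transgene or had a treatment. Housing is given as standard germ-free, but litters were also spread over ages to limit differences in microbes, so whether the mice were germ-free was not settled. Every mouse taken at this age was still with its dam. The labels do not say whether the duodenum and the ileum that share a sample number came from the same mouse. Samples were tested as unpaired, so p-values measure the spread between these samples. Day 8 and week 3, again 3 samples per region, were used to ask whether a week 2 difference was itself different at the neighbouring ages. The mice moved to chow at day 21.

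The suckling gut lives on milk. Its lactose is split at the brush border by lactase, its fat is taken up and packed into chylomicrons mainly in the proximal bowel, and much of its protein is taken up whole by distal enterocytes and broken down in their lysosomes. At weaning, sucrase-isomaltase replaces lactase as the main disaccharidase, the lysosomal enterocytes are lost, and the ileum begins to recover bile acids from the lumen. Regional identity is set in part by transcription factors of the proximal gut, such as Pdx1 and Gata4.

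Both regions carried the RNA their labels call for. Pdx1, a transcription factor of duodenum and pancreas, stood at 19.4, 4.23 and 14.5 CPM (read counts scaled for library size) in duodenum samples 1 to 3 and at 0.146, 0.227 and 0.208 CPM in ileum samples 1 to 3. Fgf15, the hormone by which ileal enterocytes restrain bile acid synthesis in the liver, stood at 10.2, 33.3 and 16.1 CPM in duodenum and at 266, 361 and 289 CPM in ileum. Neither gene's groups overlapped, although duodenum sample 2 was the lowest of its group for Pdx1 and the highest for Fgf15. The epithelial genes Epcam and Vil1 stood at 1418 ± 66.8 and 994 ± 136 CPM in duodenum and at 1565 ± 56.1 and 1050 ± 59.9 CPM in ileum (mean ± SD, n = 3). All 9 epithelial markers listed summed to 6022 to 6545 CPM in duodenum and 5866 to 6448 CPM in ileum. In the test described below 3 of the 9 were higher in duodenum, 1 was higher in ileum and 5 did not pass. Muscle RNA was sparse for pieces labelled whole thickness. Acta2 and Myh11, which encode the actin and myosin of smooth muscle, were at 2.56 and 1.35 CPM in duodenum and at 5.62 and 9.04 CPM in ileum, and over the 16 groups of the series their highest group means were 21.3 and 32.2 CPM.

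Sequencing depth was 27323912 to 47190126 estimated counts per sample, with 24094 to 26853 genes detected. Mitochondrial transcripts took 16.5% to 21.0% of the counts in duodenum and 13.4% to 14.5% in ileum, and the part of that gap in the results was not tested. Spearman correlation of log2 CPM was 0.982 to 0.992 within a region and 0.954 to 0.962 between regions. By Xist and the Y-linked Ddx3y, sample 3 of each region was male and samples 1 and 2 female.

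The regions differed in much of what could be tested. Of 17319 genes, 7426 (42.9%) passed an adjusted p of 0.05 in edgeR's quasi-likelihood test. Of those, 3563 (20.6% of the genes tested) were higher in ileum and 3863 (22.3%) higher in duodenum. The median difference over all genes tested was 0.0059 on the log2 scale, ileum minus duodenum. Differences over 2-fold were less evenly divided, with 1720 genes higher in ileum and 852 higher in duodenum. Over 8-fold the counts were 119 and 73. A fit over all 48 samples of the series called 2561 genes. The split depended on the scaling: with library totals in place of TMM factors 7827 genes were called, 74.7% of them higher in ileum against 48% here, and the median difference was 0.256. Differences are given relative to the TMM scaling, and ones near 0, such as those of Lct, Apob, Cdx2, Hnf4a, Lgr5 and Slc51b, which did not pass, changed sign with library totals.

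Among genes of at least 10 CPM whose groups did not overlap, the 12 with the largest differences towards the ileum had no single role. Scd2, a stearoyl-CoA desaturase, stood at 3.31, 3.5 and 4.18 CPM in duodenum and at 197, 457 and 291 CPM in ileum, a log2 difference of 6.41 (SE 0.35, adjusted p = 1.91e-05). Slc6a14, an amino acid transporter of broad specificity, was at 0.114, 0.269 and 0.0924 CPM in duodenum and at 18.4, 23.6 and 6.45 CPM in ileum. Every ileum sample lay above every duodenum sample for both genes, and ileum sample 3 was the low one for Slc6a14. Slc5a8, a sodium-coupled carrier of short-chain fatty acids and lactate, was 27.6-fold higher in ileum, with 2.17, 5.77 and 3.37 CPM against 83.2, 118 and 111 CPM. The tight junction gene Cldn8 was 27.8-fold higher, with 1.26, 3.73 and 2.96 CPM against 57.5, 82.7 and 80.3 CPM. Rarres1, first found as a gene that responds to retinoids, had the largest fitted difference of the 12 genes named by rule, at 7.43 (SE 0.34), with 0.0462 to 0.229 CPM in duodenum and 18.1 to 25.7 CPM in ileum. Fga, which encodes the fibrinogen alpha chain, was at 0.229, 0.231 and 0.0462 CPM in duodenum and 7.62, 13.7 and 15 CPM in ileum. Its partner Fgb had no count in any duodenum sample and 5.92, 11.1 and 8.85 CPM in ileum, which is at least 281-fold higher when the duodenum group is set at 3 counts. Of 7 liver markers 4 passed the low-count filter, Fgb among them only through its ileum counts. Of those 4, 2 were higher in ileum, Fgb and Ttr, and 2 did not pass the test. Ttr, the carrier of thyroid hormone, was at 46.4 ± 5.73 CPM in duodenum and 58.8 ± 4.37 CPM in ileum. The liver list, to which Ttr gave most, summed to 44.3 to 56.5 CPM in duodenum and 64.5 to 75.7 CPM in ileum, while Alb was at 0.269 and 0.0979 CPM and Ahsg had no count in any of the 6 samples. The remaining genes of the 12 were Bcl2l15, Abca13, Col8a1, Bex4, Fgf15 and Gsta2, with log2 differences of 5.62, 5.15, 4.08, 4.06, 3.95 and 3.83.

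The 12 with the largest differences towards the duodenum included a peptidase, lipid and drug-metabolising enzymes and a pair of transcription factors. Mme, which encodes the brush border peptidase neprilysin, stood at 516, 320 and 431 CPM in duodenum and at 13.7, 7 and 10.3 CPM in ileum, a log2 difference of -5.35 (SE 0.29, adjusted p = 1.44e-05). Mfsd2a, a carrier of lysophospholipids, stood at 196, 141 and 151 CPM in duodenum and at 3.33, 1.11 and 5.41 CPM in ileum. Onecut2, a transcription factor of the proximal bowel, was at 311, 199 and 310 CPM in duodenum and at 19.3, 4.59 and 10.2 CPM in ileum. These 3 genes had groups far apart and ileum sample 2 as the lowest of the 6. C8b, which encodes a complement chain, had the largest fitted difference of the 12, at -6.86 (SE 0.36), with 57.3, 28.3 and 40.3 CPM against 0.525, 0.227 and 0.347 CPM. Reg1, a secreted lectin of the Reg family, was at 71.9, 17.5 and 83.5 CPM in duodenum and 0.408, 0.863 and 0.555 CPM in ileum. Arg2, the mitochondrial arginase, was at 21.1, 12.6 and 16.5 CPM against 0.467, 0.136 and 0.416 CPM. Aqp8, a water channel, was at 88.6, 34 and 57 CPM against 3.88, 2.25 and 3.3 CPM. Pdx1, Cyp4a10, Cyp3a41b and Adh6a differed by -6.00, -6.50, -5.68 and -5.59, and Cyp3a41b belongs to a cluster of near-identical genes, so its counts depend on how reads were shared among them. Trac, annotated as the constant segment of the T cell receptor alpha chain, was at 54, 28 and 43.8 CPM in duodenum and 2.31, 1.43 and 1.87 CPM in ileum, while Cd3e, which every T cell needs, was at 0.697 and 0.554 CPM in the group means and did not pass the test (log2 difference -0.29, adjusted p = 0.627).

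**Figure D1:**
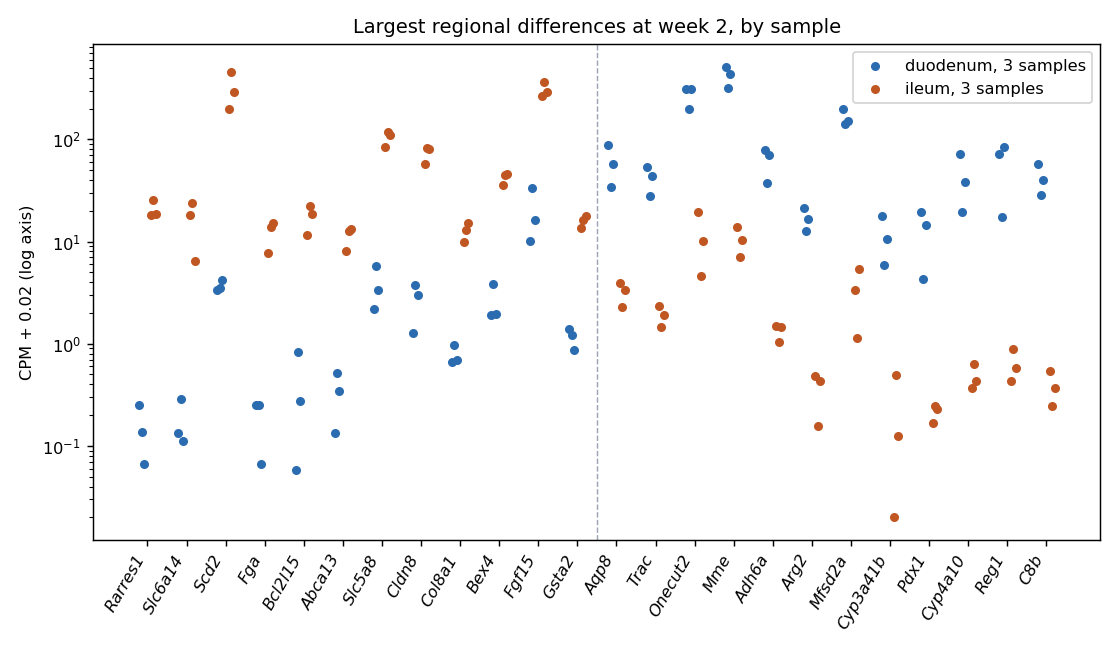
CPM plus 0.02 on a log axis for the 24 genes with the largest log2 differences named by rule, 12 higher in ileum on the left of the dashed line and 12 higher in duodenum on the right; each point is 1 of 3 duodenum (blue) or 3 ileum (orange) samples. Genes were chosen for groups that do not overlap, and Mme sits at 320 to 516 CPM in duodenum and 7 to 13.7 CPM in ileum.

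The disaccharidases did not share one pattern. Lct, which encodes lactase, was high in both regions, at 3312, 2259 and 2449 CPM in duodenum and at 2564, 1872 and 2450 CPM in ileum. Those ranges overlap, and the log2 difference of -0.22 (SE 0.18) did not pass the test (adjusted p = 0.343). Sis, which encodes sucrase-isomaltase, was 6.43-fold higher in duodenum, with 166, 124 and 134 CPM against 18, 23.4 and 24.5 CPM in ileum (log2 difference -2.68, SE 0.15, adjusted p = 1.3e-05). Treh, which encodes trehalase, was 8.48-fold higher in duodenum, at 49.5, 24.3 and 31.7 CPM against 4.23, 3.66 and 4.55 CPM. Mgam, which encodes maltase-glucoamylase, went the other way, with 405, 461 and 425 CPM in duodenum and 680, 934 and 888 CPM in ileum (log2 difference 0.95, SE 0.14). The groups of Sis, Treh and Mgam did not overlap.

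Because Lct and Sis are the classic pair of the suckling and the weaned gut and behaved differently here, the 250 bases before each start are shown, from RefSeq on GRCm38.p6, both on the minus strand and written 5′ to 3′ towards the gene. The Lct stretch is chr1:128328319-128328568, and its capitals mark matches to the GATA motif:

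Lct: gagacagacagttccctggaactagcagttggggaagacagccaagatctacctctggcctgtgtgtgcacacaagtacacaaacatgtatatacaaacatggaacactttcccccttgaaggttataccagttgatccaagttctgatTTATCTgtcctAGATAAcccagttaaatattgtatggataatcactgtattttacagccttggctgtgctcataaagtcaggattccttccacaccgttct

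The Sis stretch is chr3:72967864-72968113, and its capitals mark a match to the HNF1 motif and, nearer the start, a pair of CDX motifs:

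Sis: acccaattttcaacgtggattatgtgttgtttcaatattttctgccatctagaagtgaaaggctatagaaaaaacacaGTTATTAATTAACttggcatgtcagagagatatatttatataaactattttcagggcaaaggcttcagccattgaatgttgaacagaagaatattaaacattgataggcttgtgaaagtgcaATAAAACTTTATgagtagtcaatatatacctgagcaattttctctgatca

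The motifs were searched on both strands, as AGATAA or TGATAA for GATA. The Lct matches are TTATCT, 101 to 96 bases before the start, and AGATAA, 90 to 85 bases before it. The Sis matches are GTTATTAATTAAC, 172 to 160 bases before the start, and ATAAAACTTTAT, 50 to 39 bases before it. For HNF1 the motif was those 13 letters with positions 5 and 7 free, and for the CDX pair those 12 letters with positions 6 and 7 free, counted from 1 at the 5′ end. No motif contains another, and the matches in these stretches do not overlap. Over 32851 windows of the same length, 16.6% held the GATA motif, 0.0335% the HNF1 motif and 0.18% the CDX pair. Of factors known to bind such motifs, Gata4 was 3.05-fold higher in duodenum, at 157, 122 and 129 CPM against 56.3, 32.6 and 45.2 CPM (log2 difference -1.61, SE 0.19). Cdx2 was at 164, 131 and 127 CPM in duodenum and at 135, 125 and 137 CPM in ileum, ranges that overlap, with an adjusted p of 0.578. A match is a stretch of letters and was not tested for binding.

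Brush border peptidases were called in both directions. Of 12 tested members 6 were higher in ileum, 3 were higher in duodenum and 3 did not pass. The shares over all genes tested were 20.6% and 22.3%, so the duodenum count was near its share. Naaladl1, a dipeptidase of the ileal brush border, stood at 123, 185 and 135 CPM in duodenum and at 1463, 1654 and 1875 CPM in ileum, 11.3-fold higher in ileum. Enpep, which encodes aminopeptidase A, was 4.53-fold higher in ileum, at 160, 233 and 170 CPM against 774, 860 and 917 CPM. Mep1a, which encodes a subunit of meprin, differed by 1.12 (SE 0.15). Beside Mme, Ggt1, which splits glutathione outside the cell, was at 59.5, 18.2 and 33.9 CPM in duodenum and at 3.15, 2.61 and 3.02 CPM in ileum. Tmprss15, the enteropeptidase that activates trypsinogen, was at 14, 0.269 and 7.76 CPM in duodenum and at 0.0292, 0.318 and 0 CPM in ileum, so duodenum sample 2 lay among the ileum samples for this gene (log2 difference -5.72, SE 1.61, adjusted p = 0.035). Its call was lost in 5 of 6 fits with 1 library out, at adjusted p from 0.054 to 0.125, and held without duodenum sample 2.

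Genes of fat handling were weighted to the duodenum. Of 17 tested genes of fat absorption and chylomicron assembly 10 were higher in duodenum, 1 was higher in ileum and 6 did not pass, with a median log2 difference of -0.76. Cd36, a fatty acid receptor and carrier, stood at 325, 174 and 210 CPM in duodenum and at 29.4, 10.7 and 13.8 CPM in ileum, a log2 difference of -3.72 (SE 0.45, adjusted p = 0.000985). Fabp1, a cytosolic fatty acid binding protein, was at 1849, 1346 and 1367 CPM against 386, 146 and 292 CPM. Its relative Fabp2 was at 3278, 2297 and 2769 CPM against 764, 572 and 855 CPM. Each of these genes had duodenum sample 1 as its highest and ileum sample 2 as its lowest. Mttp, the transfer protein that loads lipid onto apolipoprotein B, differed by -1.06 (SE 0.15), and Apoc2, a chylomicron apolipoprotein, by -2.35 (SE 0.36). Apob, the structural protein of the chylomicron, was at 10496, 8242 and 9104 CPM in duodenum and at 8619, 7195 and 8166 CPM in ileum, and did not pass the test (log2 difference -0.22, adjusted p = 0.235). Slc27a4, a fatty acid transport protein, was the member higher in ileum, by 0.63 (SE 0.16), and lost its call without ileum sample 3 (adjusted p = 0.0545).

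Genes of fat oxidation were also mostly higher in duodenum. Of 18 tested genes of ketone synthesis and fatty acid oxidation 14 were higher in duodenum, 0 were higher in ileum (0 at an unadjusted p under 0.05 and 0 in DESeq2) and 4 did not pass, with a median of -0.71. Cyp4a10, an omega-hydroxylase of fatty acids and a target of the nuclear receptor PPAR alpha, was at 72.4, 19.2 and 37.9 CPM in duodenum and at 0.35, 0.614 and 0.416 CPM in ileum. Pdk4, which turns pyruvate away from oxidation, differed by -1.48 (SE 0.20), and Acaa2, a mitochondrial thiolase, by -1.24 (SE 0.15). The gene of that receptor itself, Ppara, was at 24.5 CPM in duodenum and 20.6 CPM in ileum and did not pass (log2 difference -0.25).

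Genes of sugar uptake and metabolism were likewise mostly higher in duodenum. Of 9 genes of hexose transport, fructose use and gluconeogenesis 8 were higher in duodenum and 1, Pck1, did not pass, with a median of -1.07. Pck1 passed without duodenum sample 2 (adjusted p = 0.0262) or without ileum sample 1 (adjusted p = 0.0462), and in DESeq2. Slc2a5, the fructose transporter, was at 49.1, 25.1 and 23.7 CPM in duodenum and at 5.98, 5.57 and 7.91 CPM in ileum, 5.03-fold higher in duodenum. Slc2a2, the basolateral glucose transporter, was at 499, 402 and 408 CPM against 165, 148 and 194 CPM. Slc5a1, the sodium-coupled glucose transporter, differed less, at 885, 624 and 688 CPM against 442, 376 and 475 CPM (log2 difference -0.77, SE 0.15). Khk, which begins fructose breakdown, differed by -1.61 (SE 0.19). None of these 4 genes had overlapping groups.

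**Figure D2:**
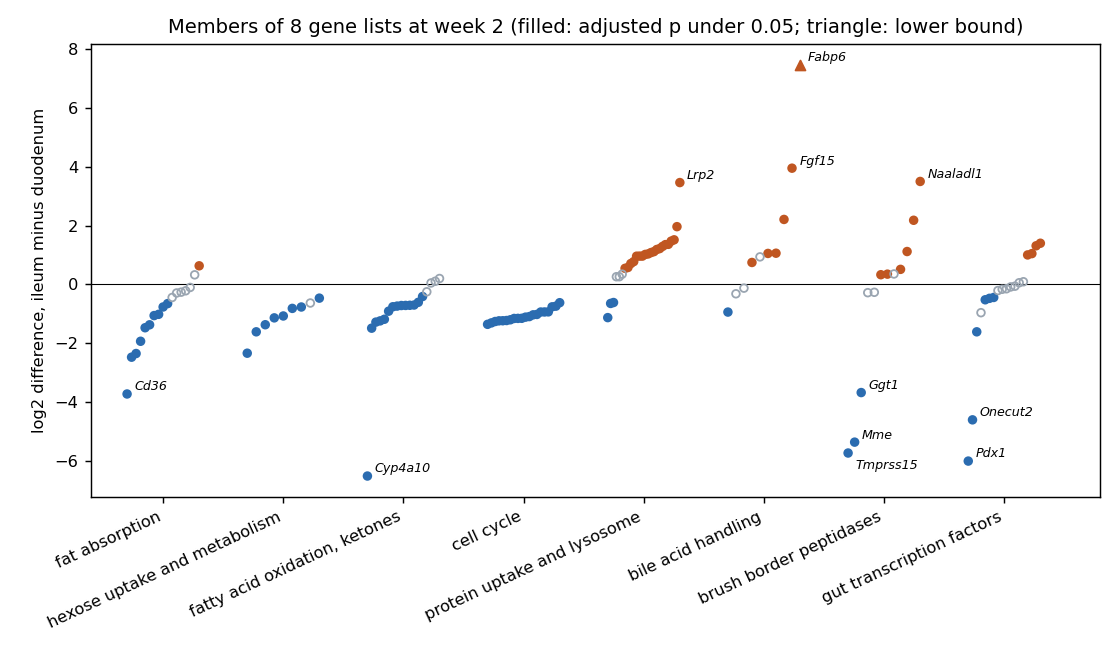
Log2 difference, ileum minus duodenum, of every tested member of 8 gene lists at week 2; filled points passed an adjusted p of 0.05 (orange higher in ileum, blue higher in duodenum), open points did not, and the triangle is a lower bound for Fabp6, which had no count in duodenum. All 20 cell cycle genes lie below 0, and 20 of 26 protein uptake and lysosome genes are filled and above 0.

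Genes for uptake and breakdown of whole protein were weighted to the ileum. Of 26 genes of endocytic receptors and lysosomal enzymes 20 were higher in ileum, 3 were higher in duodenum and 3 did not pass, with a median log2 difference of 0.99. Cubn, which encodes the endocytic receptor cubilin, stood at 650, 535 and 548 CPM in duodenum and at 1388, 1427 and 1609 CPM in ileum (log2 difference 1.35, SE 0.13). Its partner Amn was at 57.2, 51 and 45.2 CPM against 123, 147 and 155 CPM, and the adaptor Dab2, which carries the receptor inwards, at 622, 460 and 448 CPM against 982, 853 and 785 CPM. The 3 genes of this machinery had no overlap between the regions. Lrp2, which encodes the related receptor megalin, was 11.1-fold higher in ileum, at 3.2, 3.23 and 3.65 CPM against 36.6, 32.8 and 42.1 CPM.

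Most lysosomal enzymes were higher in ileum as well. Lgmn, an asparaginyl endopeptidase, stood at 811, 846 and 798 CPM in duodenum and at 3176, 3059 and 3328 CPM in ileum (log2 difference 1.96, SE 0.11, adjusted p = 1.26e-05). Hexa, a subunit of beta-hexosaminidase, was at 255, 211 and 205 CPM against 604, 610 and 704 CPM. Ctsa and Ctsl, which encode cathepsins, differed by 1.36 (SE 0.14) and 0.71 (SE 0.15). The exceptions that were higher in duodenum were Fcgrt, the neonatal receptor for maternal antibody, Lipa, the lysosomal acid lipase, and Cd320, the receptor for vitamin B12 bound to transcobalamin. Fcgrt was at 5483, 2778 and 3171 CPM in duodenum and at 2251, 1245 and 1742 CPM in ileum (log2 difference -1.13, SE 0.29, adjusted p = 0.0132), and without duodenum sample 1 the difference was -0.76 (adjusted p = 0.0532). Cd320, at 4.49 and 2.87 CPM in the group means, lost its call in 4 of 6 fits with 1 library out. Prdm1, a repressor that keeps the suckling enterocyte from maturing early, was at 118, 88.8 and 95.5 CPM in duodenum and at 169, 154 and 159 CPM in ileum (log2 difference 0.67, SE 0.12).

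Genes of bile acid sensing and export were expressed at week 2, with very little RNA of the uptake carrier. Of 10 tested members 6 were higher in ileum, 1 was higher in duodenum and 3 did not pass. Slc10a2, the apical sodium-dependent bile acid transporter, was at 0.457, 0.654 and 0.97 CPM in duodenum and at 1.02, 1.89 and 1.15 CPM in ileum. All ileum samples lay above the duodenum samples, yet the log2 difference of 0.94 (SE 0.36) did not pass the test (adjusted p = 0.0634). Without duodenum sample 3 it passed (adjusted p = 0.0427). Fabp6, the ileal bile acid binding protein, had no count in any duodenum sample and 1.9, 8.84 and 4.86 CPM in ileum, at least 177-fold higher when the duodenum group is set at 3 counts, and its adjusted p of 0.00188 became 0.0764 without the low-count filter. Fgf15 was 15.4-fold higher in ileum (log2 difference 3.95, SE 0.43), and Nr1h4, the bile acid receptor FXR that drives it, differed by 0.75 (SE 0.10). Slc51a, a subunit of the basolateral exporter, was at 158, 120 and 132 CPM against 236, 292 and 323 CPM, while the other subunit, Slc51b, was at 58.4, 40.6 and 40.4 CPM against 37.9, 40.5 and 49.3 CPM and did not pass (adjusted p = 0.558). Abcc2, an apical export pump for conjugates, was at 543, 553 and 452 CPM in duodenum and at 1924, 2615 and 2609 CPM in ileum. Its basolateral relative Abcc3 was the member higher in duodenum, at 30.5, 28.6 and 29.1 CPM against 15.6, 17.7 and 12.7 CPM.

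Genes of calcium, magnesium and folate uptake were mostly higher in duodenum. Of 6 tested 5 were higher in duodenum and 1 was higher in ileum. Trpv6, the apical calcium channel, stood at 4.69, 2.69 and 4.76 CPM in duodenum and at 0.321, 0.25 and 0.0347 CPM in ileum, and S100g, the calcium carrier calbindin-D9k, at 146, 102 and 163 CPM against 43.1, 58.5 and 57.3 CPM. Slc46a1, the folate carrier, differed by -1.01 (SE 0.22). For iron, 3 of 7 genes were higher in duodenum, 1 was higher in ileum and 3 did not pass, beside 22.3% and 20.6% over all genes. Cybrd1, the duodenal ferric reductase, was at 146, 75.2 and 90.6 CPM in duodenum and at 34.9, 16.9 and 20.1 CPM in ileum, whereas the iron importer Slc11a2 was at 478, 301 and 415 CPM and 439, 345 and 416 CPM (adjusted p = 0.98).

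Amino acid carriers leaned to the ileum, and ion carriers were called in both directions. Of 12 amino acid and peptide transporters 6 were higher in ileum, 3 were higher in duodenum and 3 did not pass. Beside Slc6a14, Slc1a1, a glutamate transporter, differed by 1.09 (SE 0.20) and Slc6a19, the main carrier of neutral amino acids, by 0.64 (SE 0.14). Of 14 ion and water transport genes 3 were higher in ileum, 6 were higher in duodenum and 5 did not pass. The shares over all genes were 20.6% and 22.3%. Slc9a3, the apical sodium-proton exchanger, was at 354, 233 and 278 CPM in duodenum and at 79.2, 56.4 and 75.7 CPM in ileum, and Cftr, the chloride channel, differed by -1.03 (SE 0.13). Of 10 claudins 3 were higher in each region, not far from those shares. Cldn4, a sealing claudin, was at 73.7, 50.8 and 36.1 CPM in duodenum and at 159, 153 and 163 CPM in ileum, and Cldn15, which forms cation pores, was at 110, 88 and 96 CPM against 40.4, 39.6 and 41.3 CPM. The groups of Slc9a3, Cldn4 and Cldn15 did not overlap.

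Drug-metabolising enzymes were mostly higher in duodenum. Of 21 tested genes of cytochrome P450s and conjugating enzymes 12 were higher in duodenum, 3 were higher in ileum and 6 did not pass, with a median of -0.47. Cyp2d26 was at 131, 64.9 and 95.6 CPM in duodenum and at 8.14, 4.41 and 7.77 CPM in ileum, and Cyp2c65 at 59.5, 28.5 and 39 CPM against 8.93, 4.68 and 6 CPM. Cyp3a11 had a wide spread in duodenum, at 80.6, 11.9 and 28.3 CPM, against 7.06, 9 and 4.75 CPM in ileum (log2 difference -2.52, SE 0.74, adjusted p = 0.0407), and its call was lost in 5 of 6 fits with 1 library out. These families hold near-identical copies among which reads can be split. Of 10 genes of citrulline and arginine synthesis 3 were higher in duodenum, 1 was higher in ileum and 6 did not pass. Those counts were not far from the shares over all genes, 22.3% and 20.6%. Otc, higher in duodenum, differed by -0.73 (SE 0.11), and Asl, the member higher in ileum, by 1.11 (SE 0.12).

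**Figure D3:**
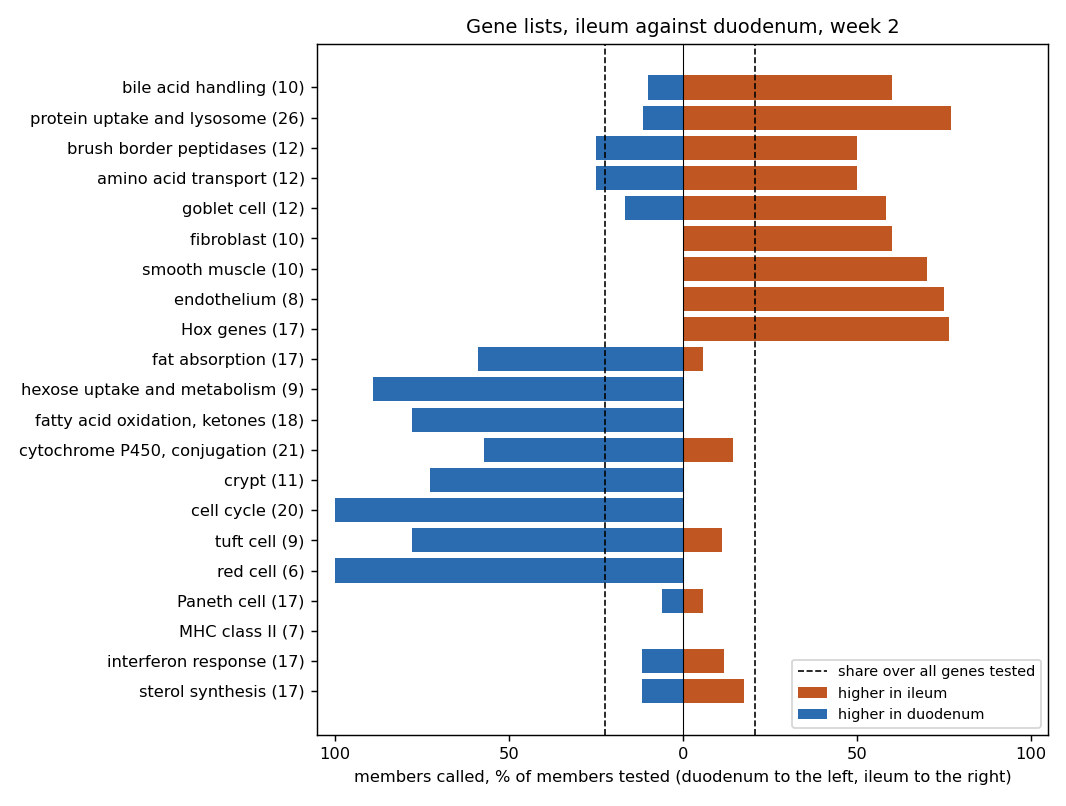
Share of the tested members of 21 gene lists that passed an adjusted p of 0.05 at week 2, with members higher in duodenum drawn to the left and members higher in ileum to the right; the number tested is in parentheses and dashed lines mark the shares over all genes tested, 22.3% and 20.6%. Cell cycle and red cell lists lie wholly to the left, and the list of MHC class II genes has no member called.

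Transcription factors that pattern the gut along its length were called in both directions, as were genes at large. Of 18 tested members 6 were higher in duodenum and 4 higher in ileum, beside 22.3% and 20.6% over all genes. The other 8 did not pass, among them Cdx2 and Hnf4a. Besides Pdx1, Onecut2 and Gata4, Gata6 was higher in duodenum, at 173, 155 and 165 CPM against 115, 104 and 125 CPM (log2 difference -0.52, SE 0.10). Osr2, a zinc finger factor, was higher in ileum, at 11.4, 18.7 and 12.7 CPM in duodenum and 25.6, 31.8 and 28 CPM in ileum. Hnf4a, a factor of all enterocytes, was at 902, 767 and 739 CPM against 732, 641 and 713 CPM (adjusted p = 0.19).

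Hox genes, which set position along the body axis, were low in both regions and mostly higher in ileum. Of 39 Hox genes 9 had no count in any of the 6 samples. Of the other 30, every ileum sample lay above every duodenum sample for 17, the reverse held for 3, and 10 overlapped. Over all 31956 genes with a count those shares were 18.9% and 16.5%. The low-count filter kept 17 Hox genes, some only through their ileum counts, and 13 of those were called. Of the 3 that went the other way, Hoxa9 had 43 counts in duodenum and 8 in ileum and Hoxa10 had 25 and 0, both under the filter, and Hoxa4 did not pass (log2 difference -0.65, adjusted p = 0.143). Their summed level was 9.26 to 10.7 CPM in duodenum and 22.2 to 40.8 CPM in ileum. Hoxb6 was at 0.305, 0.577 and 0.416 CPM in duodenum and at 4.9, 4.79 and 2.22 CPM in ileum, and Hoxc8 at 0.0762, 0.154 and 0.139 CPM against 2.25, 2.52 and 1.77 CPM. Hoxb9 was at 0.0762, 0 and 0.0924 CPM against 1.72, 3.27 and 1.01 CPM. Hoxd3 had no count in duodenum and 0.438, 1.57 and 0.521 CPM in ileum, at least 29.4-fold higher when the duodenum group is set at 3 counts. Hox genes are expressed in the muscle and mesenchyme of the gut as well as its lining, and the mesenchymal markers given further on were also higher in ileum; their part in these values was not tested.

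Genes of dividing cells were higher in duodenum. All 20 genes of the cell cycle and DNA replication were higher in duodenum, with a median log2 difference of -1.13. Mki67, a marker of cycling cells, stood at 265, 417 and 402 CPM in duodenum and at 168, 160 and 161 CPM in ileum (log2 difference -1.15, SE 0.16, adjusted p = 0.000678). Pcna, the replication clamp, was at 115, 190 and 166 CPM against 67.4, 70.4 and 73.9 CPM. Duodenum sample 1 was the lowest of its group for both, and was still above every ileum sample. Of 11 crypt genes 8 were higher in duodenum and 3 did not pass. Olfm4, abundant in crypt stem cells, was at 1737, 3560 and 3106 CPM in duodenum and at 1340, 1234 and 1299 CPM in ileum, and Smoc2, another stem cell gene, differed by -0.91 (SE 0.19). Lgr5, the receptor that defines those stem cells, was at 44.1, 91.7 and 81.9 CPM against 62.6, 70.5 and 61.2 CPM, ranges that overlap, and did not pass (adjusted p = 0.593). Without duodenum sample 1, the low one, the difference was -0.42 (adjusted p = 0.00295). In whole tissue, more cells of a type and more RNA per cell cannot be told apart.

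Secretory lineages differed by type. Of 12 goblet cell genes 7 were higher in ileum, 2 were higher in duodenum and 3 did not pass. Muc2, the gel-forming mucin, was at 208, 218 and 181 CPM in duodenum and at 682, 880 and 663 CPM in ileum (log2 difference 1.87, SE 0.14), and Fcgbp, a mucus protein, differed by 0.77 (SE 0.20), with an adjusted p of 0.0534 when ileum sample 2 was left out. Zg16, a lectin of goblet cell granules, went the other way, at 192, 89.4 and 97 CPM against 44.9, 26.8 and 39.9 CPM. Of 17 Paneth cell genes 15 did not pass. Lyz1, lysozyme, was at 159, 349 and 249 CPM in duodenum and at 119, 227 and 257 CPM in ileum (adjusted p = 0.47). Mptx2, a pentraxin, was the member higher in ileum, by 2.28 (SE 0.35), and Ang4, an antimicrobial ribonuclease, the member higher in duodenum, by -0.56 (SE 0.14).

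Tuft cell genes were mostly higher in duodenum. Of 12 tuft genes 9 passed the low-count filter, Trpm5 among them only through its duodenum counts. Of those 9, 7 were higher in duodenum, 1 was higher in ileum and 1 did not pass. Their median was -2.64, and both the counts and the median depend on that filter. All 12 summed to 32.4 to 44.2 CPM in duodenum and 9.96 to 15.0 CPM in ileum. Dclk1, a kinase that marks these chemosensory cells, was at 8.61, 8.61 and 13.4 CPM in duodenum and at 1.2, 1.68 and 0.486 CPM in ileum. Trpm5, their cation channel, was at 4.84, 3.46 and 5.82 CPM against 0.233, 0.523 and 0.382 CPM. Ptgs1, a cyclooxygenase that other cells also express, was the member higher in ileum, at 3.58, 3.69 and 5.29 CPM against 9.8, 8.11 and 6.21 CPM.

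Hormone genes made mainly in the proximal gut were mostly higher in duodenum and those made mainly in the distal gut mostly higher in ileum. Of 5 tested proximal hormones 4 were higher in duodenum. Gip, the incretin of K cells, was at 118, 79 and 109 CPM in duodenum and at 24.4, 19 and 25.6 CPM in ileum, and Cck, which empties the gallbladder, at 29.5, 12.8 and 19 CPM against 4.9, 5.82 and 7.22 CPM. Ghrl, ghrelin, and Sst, somatostatin, differed by -2.59 (SE 0.30) and -1.08 (SE 0.22). Of 4 distal hormones 3 were higher in ileum. Nts, neurotensin, was at 35.6, 38.8 and 42 CPM against 104, 133 and 142 CPM, Pyy, peptide YY, at 6.25, 2.92 and 4.06 CPM against 11.8, 19.5 and 16.7 CPM, and Gcg, the source of glucagon-like peptides, differed by 0.88 (SE 0.26), a call lost in 4 of 6 fits with 1 library out. Insl5, a hormone of the colon, was the exception, at 1.52, 0.423 and 0.508 CPM in duodenum and 0.0584, 0.0454 and 0.0694 CPM in ileum.

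Markers of stroma were higher in ileum at low levels. Of 10 fibroblast genes 6 were higher in ileum and 4 did not pass. The counts higher in ileum were 7 of 10 for smooth muscle and 6 of 8 for endothelium, and the rest did not pass. Pdgfra, a marker of villus mesenchyme, was at 2.1, 2.46 and 1.27 CPM in duodenum and at 20.9, 19.5 and 13.2 CPM in ileum (log2 difference 3.24, SE 0.27), and Myh11 was at 1.22, 1.04 and 1.78 CPM against 12.1, 10.4 and 4.65 CPM. Cdh5, of the endothelial junction, was at 2.82, 5.46 and 3.83 CPM against 11.9, 9.48 and 8.99 CPM. Ileum sample 3 was the lowest of its group for each of these 3. Summed over the list, fibroblast markers ran from 70.6 to 113 CPM in duodenum and from 121 to 273 CPM in ileum, and endothelial markers from 34.3 to 43.5 CPM and from 65.5 to 90.0 CPM. The smooth muscle list summed to 321 to 427 CPM in duodenum and 301 to 364 CPM in ileum, most of it from Mylk, which the epithelium also expresses. Of the 13 genes of enteric neurons and glia only 5 passed the low-count filter. Ret, a receptor of enteric neurons, was at 54.2, 41.4 and 39.9 CPM against 117, 114 and 125 CPM, while S100b, a glial calcium-binding protein, was at 23.9, 11.7 and 16.5 CPM against 1.78, 2.11 and 2.5 CPM.

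Red cell RNA was higher in duodenum, as were some markers of pancreas, stomach and colon. All 6 red cell genes were higher in duodenum, with Hbb-bs, a beta-globin, at 256, 270 and 275 CPM against 133, 99 and 89.4 CPM. Pancreatic acinar markers summed to 75.5 to 84.5 CPM in duodenum and 41.4 to 58.4 CPM in ileum, 2 of 9 tested members, Rnase1 and Cela1, were higher in duodenum, and Ptf1a and Amy2a5 had no count. Markers of stomach lining and Brunner glands summed to 10.8 to 13.5 CPM in duodenum and 2.57 to 3.73 CPM in ileum. Most of the duodenum sum came from Gkn3, a gastrokine, at 7.32, 9.15 and 11.2 CPM against 2.51, 1.3 and 1.8 CPM. Gkn3 was the 1 of 3 tested members that passed, and Muc5ac was at 0. Which cells the Gkn3 RNA came from was not tested. Of 10 markers of caecum and colon 4 passed the low-count filter. Of those, 3, Aqp8, Slc37a2 and Insl5, were higher in duodenum and 1 was higher in ileum. Insl5 passed the filter only through its duodenum counts, 73 against 6 in ileum. The list summed to 80.4 to 185 CPM in duodenum and 39.6 to 42.7 CPM in ileum, most of the duodenum sum from Aqp8 and the sugar phosphate carrier Slc37a2, at 83.4, 30 and 53.6 CPM against 4.44, 2.89 and 4.37 CPM, and Car1, Hoxb13 and Hoxd13 had no count in any sample. Of 7 MHC class II genes 0 were called in edgeR and in DESeq2, and 0 had an unadjusted p under 0.05.

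The regional difference at week 2 was then set against those at day 8 and week 3 in one edgeR fit of 18 samples, which tests the change of the difference itself. CPM values from here on use the scaling of that fit. From day 8 to week 2 the difference changed for 280 of 19223 genes (1.46%), with 39 (0.203%) moving towards the ileum and 241 (1.25%) towards the duodenum. From week 2 to week 3 it changed for 902 (4.69%), with 590 (3.07%) moving towards the ileum and 312 (1.62%) towards the duodenum. Both counts depended on the fit. With all 48 samples in it they were 3 and 113, with DESeq2 954 and 1427 (31% and 69.5% towards the ileum, against 13.9% and 65.4% in edgeR), with the 40 samples that have normalized values 158 and 672 (63.3% and 40.6%), with library totals in place of TMM factors 159 and 772 (32.1% and 39.9%), and without ileum week 2 sample 2 they were 65 and 533.

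The regional difference of Sis changed at both steps. It stood at 24.4 ± 2.11 CPM in duodenum and 33.6 ± 13.5 CPM in ileum at day 8, at 135 ± 20.7 and 20.8 ± 3.32 CPM at week 2, and at 3526 ± 384 and 4608 ± 164 CPM at week 3 (mean ± SD, n = 3). The log2 difference was 0.45, then -2.70, then 0.39, and both changes were called, by -3.15 (SE 0.30, adjusted p = 6.69e-05) and by 3.08 (SE 0.30, adjusted p = 8e-06). Treh kept a difference towards the duodenum at all 3 ages, and its change from -3.10 at week 2 to -0.71 at week 3 was called. Mme differed by -4.44 at day 8, -5.37 at week 2 and -1.39 at week 3, with 431 ± 145 CPM in the week 3 ileum against 9.81 ± 3.19 CPM at week 2. Lct had differences of -0.26, -0.23 and -0.10 at the 3 ages.

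The bile acid carrier separated the regions far more at week 3 than at week 2. Slc10a2 stood at 1.28 ± 0.441 CPM in the week 2 ileum and at 368 ± 68.6 CPM in the week 3 ileum, with 0.663 ± 0.248 and 2.37 ± 0.377 CPM in duodenum. Its regional difference was 2.45 at day 8, 0.91 at week 2 and 7.26 at week 3, and the second change was 6.36 (SE 0.40, adjusted p = 3.52e-08). Fabp6 stood at 31.5 ± 13.7 CPM in the day 8 ileum, 4.92 ± 3.29 CPM in the week 2 ileum and 953 ± 121 CPM in the week 3 ileum, and the steps between ages within a region were not tested. Slc51b, at -0.14 at week 2, differed by 1.82 at week 3, a called change of 1.95. Fgf15 stood at 289 ± 46.8 CPM in the week 2 ileum and 44.4 ± 8.21 CPM in the week 3 ileum, and had 4 counts in all in the week 3 duodenum. The size of its called change, 6.30 (SE 0.91), depends on those few counts.

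Some fat genes drew apart before week 2 and some drew together after it. From day 8 to week 2, 3 of 17 fat genes moved towards the duodenum, Cd36 by -2.36, Fabp2 by -2.21 and Fabp1 by -2.11. With 1 of the 12 libraries left out at a time, Cd36 lost its call in 10 fits and Fabp1 in 8, at adjusted p up to 0.108, and Fabp2 in none. From week 2 to week 3, 3 moved towards the ileum, among them Fabp2 by 2.59 and Mttp by 0.95, the latter lost in 3 of 12 fits with 1 library out, at adjusted p up to 0.0727. Mttp was at 3360 ± 329 CPM in duodenum and 1600 ± 277 CPM in ileum at week 2, and at 3836 ± 556 and 3533 ± 485 CPM at week 3. Cd36 kept a difference of -3.37 at week 3. Of 9 hexose genes 4 moved towards the ileum after week 2, among them Slc2a5 by 1.53, which was lost without ileum week 2 sample 2 (1.43, adjusted p = 0.0575). The share over all genes in that direction was 3.07%. G6pc, the last enzyme of gluconeogenesis, moved the other way, by -1.73 (SE 0.33, adjusted p = 0.00438).

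Of 26 protein uptake and lysosome genes 0 were called from day 8 to week 2 in edgeR, 7 at an unadjusted p under 0.05 and 2 by DESeq2, and 3 moved towards the duodenum after week 2, among them Hexa by -1.06, where the share over all genes was 1.62%. The list's median difference was 1.04 at day 8, 0.98 at week 2 and 0.49 at week 3. Of the 20 cell cycle genes 0 were called at either step in edgeR or in DESeq2, with 1 at an unadjusted p under 0.05 in edgeR for the first step and 2 for the second, and the list's median was -1.17, -1.14 and -0.72. Endothelial genes had a median of 3.02 at day 8 and 0.97 at week 2, and 5 of 8 moved towards the duodenum over that step, among them Cdh5 by -1.87 and Kdr by -1.79. With 1 of the 12 libraries left out at a time, those calls were lost in 4 and 5 fits, at adjusted p up to 0.0565.

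**Figure D4:**
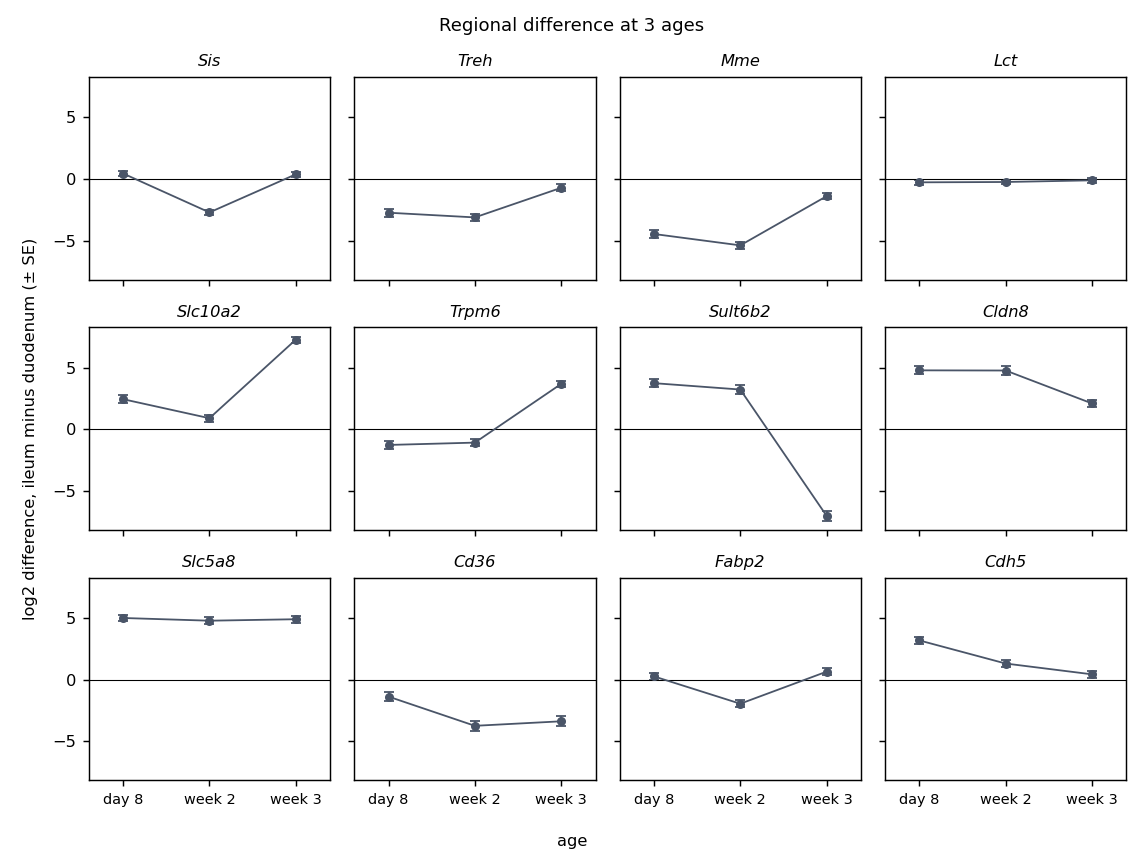
Log2 difference, ileum minus duodenum, with its SE at day 8, week 2 and week 3 for 12 genes, from one fit of 18 samples with 3 per region and age. Sis dips to -2.70 at week 2 alone, Slc10a2 and Trpm6 climb to 7.26 and 3.68 at week 3, Sult6b2 turns from 3.23 to -6.99, and Lct stays between -0.26 and -0.10.

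Other genes changed in their regional difference between week 2 and week 3. Sult6b2, a sulfotransferase, stood at 3.48 ± 1.12 CPM in duodenum and 32.6 ± 7.91 CPM in ileum at week 2, and at 172 ± 59.4 and 1.34 ± 0.669 CPM at week 3, a change of -10.22 (SE 0.53, adjusted p = 3.52e-08). Trpm6, a magnesium channel, went from 1.03 ± 0.211 and 0.487 ± 0.0546 CPM to 3.26 ± 0.87 and 41.8 ± 10 CPM, a change of 4.75 (SE 0.36). Suox, sulfite oxidase, went from 5.5 ± 0.841 to 129 ± 28 CPM in ileum while duodenum stood at 4.01 ± 0.536 and 7.51 ± 0.79 CPM. Krt20, a keratin of mature villus cells, differed by -1.34 at week 2 and 0.75 at week 3, a called change of 2.09. Cldn8 narrowed from 4.77 to 2.10, a called change of -2.67, and Slc5a8, at 4.78 and 4.90, had no called change.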

How the data were processed

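The authors aligned and quantified the reads before deposit. The submitters' processing notes name STAR 2.6.1d, Salmon 0.14.2, DESeq2 1.30.1 and the mm10 build. The annotation release is not given in the sources used here. The deposited estimated counts per gene, whole numbers for 54532 genes in 48 samples, were used for every test. Per the labels, RNA came from homogenised tissue. The deposited normalized tables hold a scaled signal in 40 columns, each a constant multiple of the estimated counts within 0.01. They gave gene symbols only, and 8 samples have no column there.

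Week 2 was tested on its 6 samples with edgeR 4.0.16 in R 4.3.3 (filterByExpr, TMM, robust quasi-likelihood, Benjamini-Hochberg), and changes of the difference on 18 samples. SE is the log2 difference divided by the square root of F. CPM is the count over the TMM-scaled library size. A fit of 6 was preferred because the day 6 libraries numbered 3 go against their labels: Pdx1 stood at 0.13 CPM in the duodenum one and 14.1 CPM in the ileum one, and Fgf15 at 113 and 4.41 CPM. Named genes were the 12 largest non-overlapping differences per direction with at least 10 CPM, the 4 smallest p per direction of each change, and members of fixed lists. The members and lists were chosen with earlier results of these data known. The procedure was tested on simulated data. Alternatives were RLE size factors, no low-count filter, a mean count of 10, DESeq2 1.42.0, all 48 or the 40 normalized samples, a replicate block, each sample left out and, chosen after seeing the data, library totals in place of TMM factors. Positions and promoters came from GENCODE M21 and RefSeq.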

Additional observations from a re-analysis of the deposited data

Results flagged for a closer look

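These genes had a regional difference that itself changed between ages, by edgeR's test of the change on the log2 scale, ileum minus duodenum. From day 8 to week 2 the difference moved towards the ileum for Gstm3 by 1.67 (adjusted p = 0.00436), Gclc by 1.61 (adjusted p = 0.0044), Tinagl1 by 0.95 and Bspry by 0.88. It moved towards the duodenum for Sis by -3.15, Stab1 by -3.04, Adamdec1 by -2.11 and Sec24d by -1.51. Gclc, a subunit of the enzyme that begins glutathione synthesis, stood at 29.3 ± 2.06 CPM in the week 2 duodenum and 104 ± 26.8 CPM in the week 2 ileum, against 41.8 ± 1.96 and 48.6 ± 2.83 CPM at day 8 (SD, n = 3). Adamdec1, a protease of gut macrophages and fibroblasts, went from 6.69 ± 0.164 and 97.5 ± 16.2 CPM to 26.8 ± 3.34 and 90.6 ± 20.9 CPM.

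From week 2 to week 3 it moved towards the ileum for Slc10a2 by 6.36, Fgf15 by 6.30, Trpm6 by 4.75, Suox by 3.63, Sis by 3.08, Treh by 2.396 and Fam118a by 1.88. It moved towards the duodenum for Sult6b2 by -10.22, Afp by -2.76, Creg1 by -2.01 and Ctsh by -1.96. Afp, alpha-fetoprotein, stood at 28.6 ± 2.29 CPM in duodenum and 42.3 ± 7.22 CPM in ileum at week 2 and at 21.6 ± 6.15 and 4.75 ± 0.821 CPM at week 3. Creg1, a lysosomal glycoprotein, went from 29.2 ± 3.1 and 125 ± 10.6 CPM to 18.9 ± 1.22 and 20 ± 3.64 CPM.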

How the results depend on the processing

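The week 2 count of 7426 genes was 7387 to 7461 with RLE factors, other filters, DESeq2 or the replicate block, 6713 with the 40 normalized samples and 2561 with all 48, of which 2441 were among the 7426. It ran from 5014 to 8800 with 1 sample left out. Without a low-count filter the median log2 difference of all genes was 0.117. The change from week 2 to week 3 was called for 902 genes, 1427 with DESeq2, 113 with all 48 samples, and 533 to 1210 with 1 sample left out. The 40 samples gave 672, with 40.6% moving towards the ileum where the 18 samples gave 65.4%. From day 8 to week 2 it was called for 280 genes, 954 with DESeq2, 3 with all 48 samples (1688 at an unadjusted p under 0.05), 158 with the 40 samples (63.3% towards the ileum, against 13.9%) and 65 to 326 with 1 sample left out. DESeq2 gave 31% towards the ileum for that step. The replicate block gave 600 for that step and 1119 for the other. Same-numbered samples of the 2 regions deviated together with correlations of 0.144, 0.0555 and 0.0952, and differently numbered ones with -0.144 to 0.0374. Sex by Xist and Ddx3y also matched by number. Whether the numbers mark pairs was not settled, and the main fit did not use them as pairs. Under the block Tmprss15 (-5.03, adjusted p = 0.211) and Cyp3a11 (-2.19, adjusted p = 0.19) lost their calls and Pck1 gained one. Of 135 genes named at week 2, 31 lost their call with all 48 samples, 4 with the 40 and 8 without a low-count filter, and 0 with RLE factors or DESeq2, with direction kept in each. With library totals, an alternative chosen after seeing the data, 125 kept direction and call, Cd320 lost its call (adjusted p = 0.141), Slc10a2, Epcam and Vil1 gained one, and the uncalled Slc51b (0.13), Apob (0.0366), Lct (0.0328), Cdx2 (0.17), Hnf4a (0.0441) and Lgr5 (0.077) changed sign. That scaling gave 159 changes from day 8 to week 2. Of 32 named changes 21 lost their call with all 48 samples and 6 with the 40. Leaving out 1 sample turned the sign of uncalled differences, which ran from -0.253 to 0.0746 for Slc51b, -0.146 to 0.0431 for Cdx2, -0.657 to 0.127 for Cd3e, -0.416 to 0.0176 for Lgr5 and -0.173 to 0.164 for Slc11a2. The cause of these moves was not tested. With 3 samples per region, differences in genes of a few counts could be missed.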

Other observations

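Immune genes were called in both directions at week 2, where 42.9% of all genes were called. Of 17 interferon-stimulated genes 2 were higher in each region and 13 did not pass. Ifit2 stood at 370, 221 and 189 CPM in duodenum and 82, 34.3 and 36.9 CPM in ileum, and lost its call without duodenum sample 1 (adjusted p = 0.0511). Ifi44 was also higher in duodenum, by -1.43 (SE 0.24), and Stat2, a signalling factor of the pathway, was higher in ileum by 0.88 (SE 0.16). Of 11 Toll-like receptor genes 3 were higher in ileum, 1 was higher in duodenum and 7 did not pass. Tlr3, a sensor of double-stranded RNA, was at 7.35, 14.3 and 13.6 CPM in duodenum and 3.85, 6.45 and 5.69 CPM in ileum, and Tlr5, the flagellin receptor, at 14.3, 15.4 and 15.7 CPM against 21.1, 21.9 and 23.3 CPM. Tlr4 differed by 1.43 (SE 0.33). Of 10 macrophage genes 9 did not pass, and of 10 B cell genes 8 did not. Of 12 T cell genes 3 were higher in duodenum, Trac and the granzymes Gzma, by -1.56 (SE 0.37), and Gzmb, by -2.06 (SE 0.43), and 9 did not pass. Reg3b, an antimicrobial lectin, was at 12.4, 8.77 and 6.12 CPM in duodenum and 18.8, 42.3 and 17.8 CPM in ileum, a call lost in 3 of 6 fits with 1 library left out.

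Sterol genes were also called in both directions. Of 17 cholesterol synthesis genes 3 were higher in ileum, 2 were higher in duodenum and 12 did not pass, beside 20.6% and 22.3% over all genes, with a median log2 difference of 0.11 against 0.0059 over all genes. Of 6 genes of sterol uptake and efflux, Abca1, a cholesterol exporter, was higher in ileum, at 13.1, 13 and 9.51 CPM against 46.7, 30.3 and 23.7 CPM. Scarb1, a lipoprotein receptor, was higher in duodenum, at 24.2, 11.2 and 16.7 CPM against 8.84, 6.91 and 7.01 CPM.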
